A study of Mus musculus with 4 samples.

Results

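The 48 genes described here carry out or time the copying of DNA and the division of the cell. They were given as a list of gene names, drawn up with earlier results of these data known. By textbook role, 21 belong to the replication machinery, 10 regulate the passage from G1 into S phase, and 17 act in G2 and mitosis. Of the 48, 46 had at least 1 accessible site assigned to them, among 15263 protein-coding genes with such a site. The data are ATAC-seq peaks, that is, places where the Tn5 transposase cut open chromatin, in organoids grown from jejunal crypts of C57BL/6J mice. In the 72 h group, CHIR99021, valproic acid and Noggin were withdrawn for 72 h and BMP2 was added at 100 ng/mL, which left EGF and R-spondin in the medium. The 0 h group was kept without BMP2 in EGF and R-spondin together with CHIR99021, which raises Wnt signalling by blocking GSK3, with valproic acid, which inhibits histone deacetylases, and with Noggin, which binds and blocks BMP. The effects of BMP2 and of the withdrawal therefore cannot be told apart.

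Each of the 4 time points of the series is 1 library of 30000 cells, and those of 24 h and 48 h were not used here. With no replicate, a difference below has no replicate error and no p-value, and intervals are exact Clopper-Pearson 95% limits that cover counting error only. A peak in the 1e-05 list is called lenient and a peak that is also in the 1e-10 list strict. The lists held 41343 lenient and 25040 strict peaks at 72 h, against 35857 and 19910 at 0 h. They give no height, and read depth is unknown. Organoids are mixed cell populations, so fewer cycling cells and less open chromatin per cell cannot be told apart. The 9 epithelial markers examined had 4 to 10 peaks each at 72 h and 2 to 10 at 0 h. The 5 enterocyte markers had 22 peaks in all at 72 h and 7 at 0 h, while 4 crypt stem cell markers had 12 and 19. Of the immune and endothelial markers, Ptprc, Cd3e and Cdh5 had no peak in either library, and Csf1r had 1 at 72 h and 0 at 0 h. The 4 fibroblast markers had 7 peaks in each library, and the 3 endothelial markers had 3 at 72 h and 2 at 0 h. The part of cell composition in the results below was not tested.

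Before S phase, the origin recognition complex, Cdc6 and Cdt1 load the MCM helicase onto DNA, and Cdc45 and GINS later activate it. Cyclin E with Cdk2, and cyclin D with Cdk4 or Cdk6, release E2F transcription factors, which switch on replication genes. Mitotic genes are switched on later through a short promoter element, the cell cycle genes homology region (CHR), bound by the MuvB complexes with B-Myb and Foxm1, often beside CCAAT boxes bound by NF-Y. In the intestine, proliferation is confined to the crypt, and cells leave the cycle as they move onto the villus.

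Promoter sequences are shown first because every one of these genes had an open site at its start or boundary, and the starts of replication and mitosis genes differ in sequence. RefSeq promoters (GRCm38.p6, 250 bases before to 50 after the gene start) were found for 39 of the 48 genes, 42 promoters in all; Mcm4, Gins1, Gins2, Pole, Ccne2, Ccna2, Aurkb, Cdc25c and Foxm1 had no entry. They were searched on both strands for E2F words (TTTCCCGC, TTTCGCGC, TTTGCCGC or TTTGGCGC), CHR words (TTTGAA or TTCGAA) and the word CCAAT. Words of different families overlapped 1 time in the 42 promoters. Each promoter below is read 5′ to 3′ along its gene with the words found in capitals. Cdc6 (chr11:98907901-98908200, plus strand) and Cdt1 (chr8:122567765-122568064, plus strand) are shown as replication licensing genes with an E2F word. Aurka (chr2:172370521-172370820, minus strand) and Bub1 (chr2:127831810-127832109, minus strand) are shown as mitotic genes with CHR and CCAAT words. Tyms (chr5:30073576-30073875, minus strand) and E2f2 (chr4:136172024-136172323, plus strand) are shown because their start peaks passed different thresholds in the 2 libraries.
Cdc6: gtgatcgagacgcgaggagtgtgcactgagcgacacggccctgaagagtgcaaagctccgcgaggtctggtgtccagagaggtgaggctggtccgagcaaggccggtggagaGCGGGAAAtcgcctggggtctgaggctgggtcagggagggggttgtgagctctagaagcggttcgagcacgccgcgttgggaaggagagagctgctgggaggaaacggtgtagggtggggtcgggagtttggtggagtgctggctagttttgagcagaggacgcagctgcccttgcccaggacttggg
Cdt1: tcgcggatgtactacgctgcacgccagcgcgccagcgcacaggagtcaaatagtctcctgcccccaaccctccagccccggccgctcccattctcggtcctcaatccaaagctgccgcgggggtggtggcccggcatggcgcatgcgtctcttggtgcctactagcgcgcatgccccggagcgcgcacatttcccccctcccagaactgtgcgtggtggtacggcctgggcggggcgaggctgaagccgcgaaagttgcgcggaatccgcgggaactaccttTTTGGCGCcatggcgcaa
Aurka: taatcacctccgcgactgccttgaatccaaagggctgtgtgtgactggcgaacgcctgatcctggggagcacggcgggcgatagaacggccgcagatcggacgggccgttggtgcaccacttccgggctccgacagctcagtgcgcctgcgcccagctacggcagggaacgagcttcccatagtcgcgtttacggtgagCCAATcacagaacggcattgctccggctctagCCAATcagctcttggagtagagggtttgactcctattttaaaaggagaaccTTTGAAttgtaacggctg
Bub1: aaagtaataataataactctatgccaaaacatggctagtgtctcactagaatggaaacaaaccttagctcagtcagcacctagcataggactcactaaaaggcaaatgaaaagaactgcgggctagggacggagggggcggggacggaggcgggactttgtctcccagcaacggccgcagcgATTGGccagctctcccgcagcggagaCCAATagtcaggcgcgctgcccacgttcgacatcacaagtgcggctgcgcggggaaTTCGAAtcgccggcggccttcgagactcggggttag
Tyms: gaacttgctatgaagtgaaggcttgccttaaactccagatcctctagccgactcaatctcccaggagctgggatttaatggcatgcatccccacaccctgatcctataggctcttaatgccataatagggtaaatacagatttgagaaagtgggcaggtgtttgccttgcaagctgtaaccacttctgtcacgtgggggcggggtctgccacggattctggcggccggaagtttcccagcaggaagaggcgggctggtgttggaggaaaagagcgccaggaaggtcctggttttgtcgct
E2f2: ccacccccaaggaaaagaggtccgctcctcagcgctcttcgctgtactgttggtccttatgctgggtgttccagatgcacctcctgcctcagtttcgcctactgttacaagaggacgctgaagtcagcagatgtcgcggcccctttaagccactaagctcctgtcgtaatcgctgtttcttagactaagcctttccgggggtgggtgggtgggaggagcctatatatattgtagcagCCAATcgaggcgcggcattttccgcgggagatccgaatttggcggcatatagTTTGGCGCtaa

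Counting the start base as 0, the E2F word of Cdc6 began at -138, read as GCGGGAAA on the gene's strand, and that of Cdt1 at 32. Aurka had CCAAT at -51 and -19 and TTTGAA at 32. Bub1 had CCAAT words at -68, in reverse as ATTGG, and -42, and TTCGAA at 14. The E2f2 window held CCAAT at -13 and TTTGGCGC at 39, and the Tyms window held none of these words, which says only that the letters are not in this window.

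E2F words were held by 9 of 18 promoters of the replication machinery (50.0%, 26.0 to 74.0), 4 of 11 of G1/S regulators (36.4%, 10.9 to 69.2) and 1 of 13 of mitosis genes, that of Cdk1 (7.69%, 0.195 to 36.0). Among 21263 promoters of protein-coding genes, 2.85% held one. CHR words were frequent in mitosis promoters, while replication promoters were near the share of all promoters. They were in 11 of 13 mitosis promoters (84.6%, 54.6 to 98.1), against 3 of 18 replication promoters (16.7%, 3.58 to 41.4) and 17.6% of all promoters. The mitosis promoters without a CHR word were those of Birc5 (survivin, a subunit of the chromosomal passenger complex) and Ccnb1 (cyclin B1). The 18 CHR words of mitosis genes had a median position of -21, and 10 began within 50 bp of the start. CCAAT was in 12 of 13 mitosis promoters (92.3%, 64.0 to 99.8), 14 of 18 replication promoters (77.8%, 52.4 to 93.6) and 38.2% of all promoters. Of the 11 promoters of G1/S regulators, 3 held a CHR word (27.3%, 6.02 to 61.0) and 6 held CCAAT (54.5%, 23.4 to 83.3). Top2a, which encodes topoisomerase II alpha, held the most words, 6 CCAAT and 4 CHR. Among related genes outside the list the order was the same for E2F and CHR, but the high CCAAT share of the replication promoters was not seen. E2F words were in 8 of 37 promoters of other replication genes (21.6%) and 1 of 33 of other mitosis genes (3.03%), and CHR words in 7 (18.9%) and 23 (69.7%). CCAAT was in 13 of the other replication promoters (35.1%, 20.2 to 52.5), against 38.2% of all promoters, and in 21 of the other mitosis promoters (63.6%, 45.1 to 79.6). A word match is a description of sequence and not a measured binding site.

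**Figure D1:**
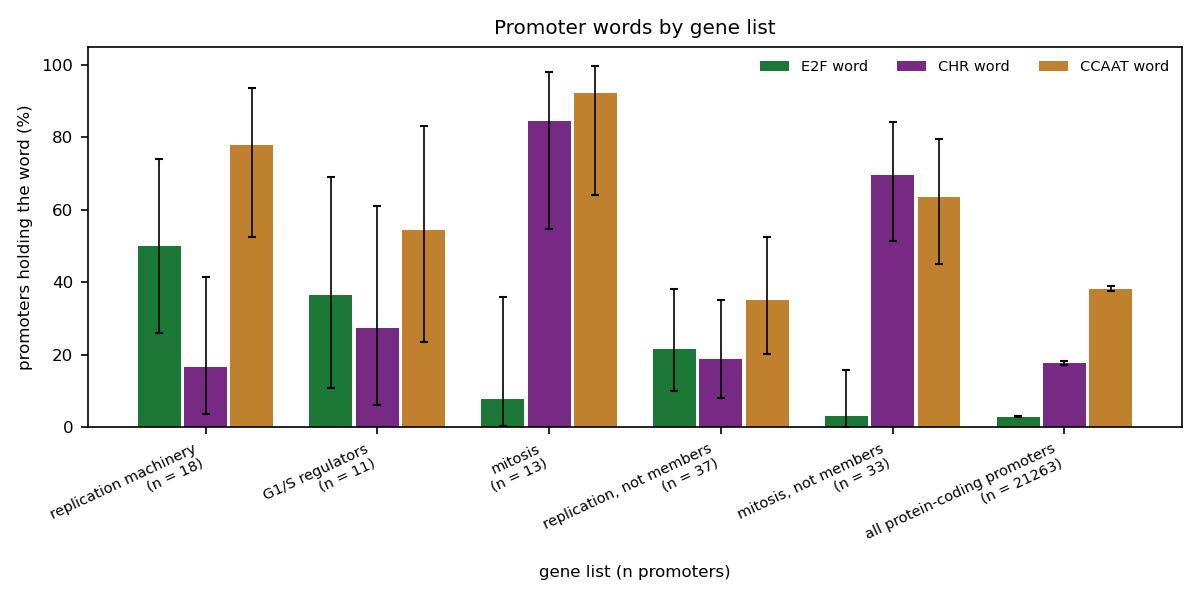
Share of promoters (y axis, %) that hold an E2F, CHR or CCAAT word, by gene list (x axis, with the number of promoters); bars are shares and whiskers exact 95% intervals. E2F words stand at 50.0% in replication promoters and 7.69% in mitosis promoters, and CHR words at 16.7% and 84.6%.

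The starts of these genes were open in both libraries. At all 39 genes with an annotated start, a peak midpoint lay within 1 kb of it at 72 h and at 0 h. The start peak was strict in both libraries at 37 of them (94.9%, 82.7 to 99.4), while 64.2% of the 12235 genes with a peak and an annotated start had this. Part of that gap lies in genes whose start was strict in neither library: among starts strict in at least 1 library, 94.9% of the members' and 88.8% of all genes' were strict in both, and the members' interval includes the share of all genes. The 9 genes without a listed start each had a strict peak within 1 kb of a gene boundary in both libraries. By role, the start was strict in both for 16 of 17 genes of the replication machinery, 8 of 9 G1/S regulators and 13 of 13 mitosis genes. Among the related genes outside the list the counts were 27 of 29 for replication and 29 of 30 for mitosis.

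**Figure D2:**
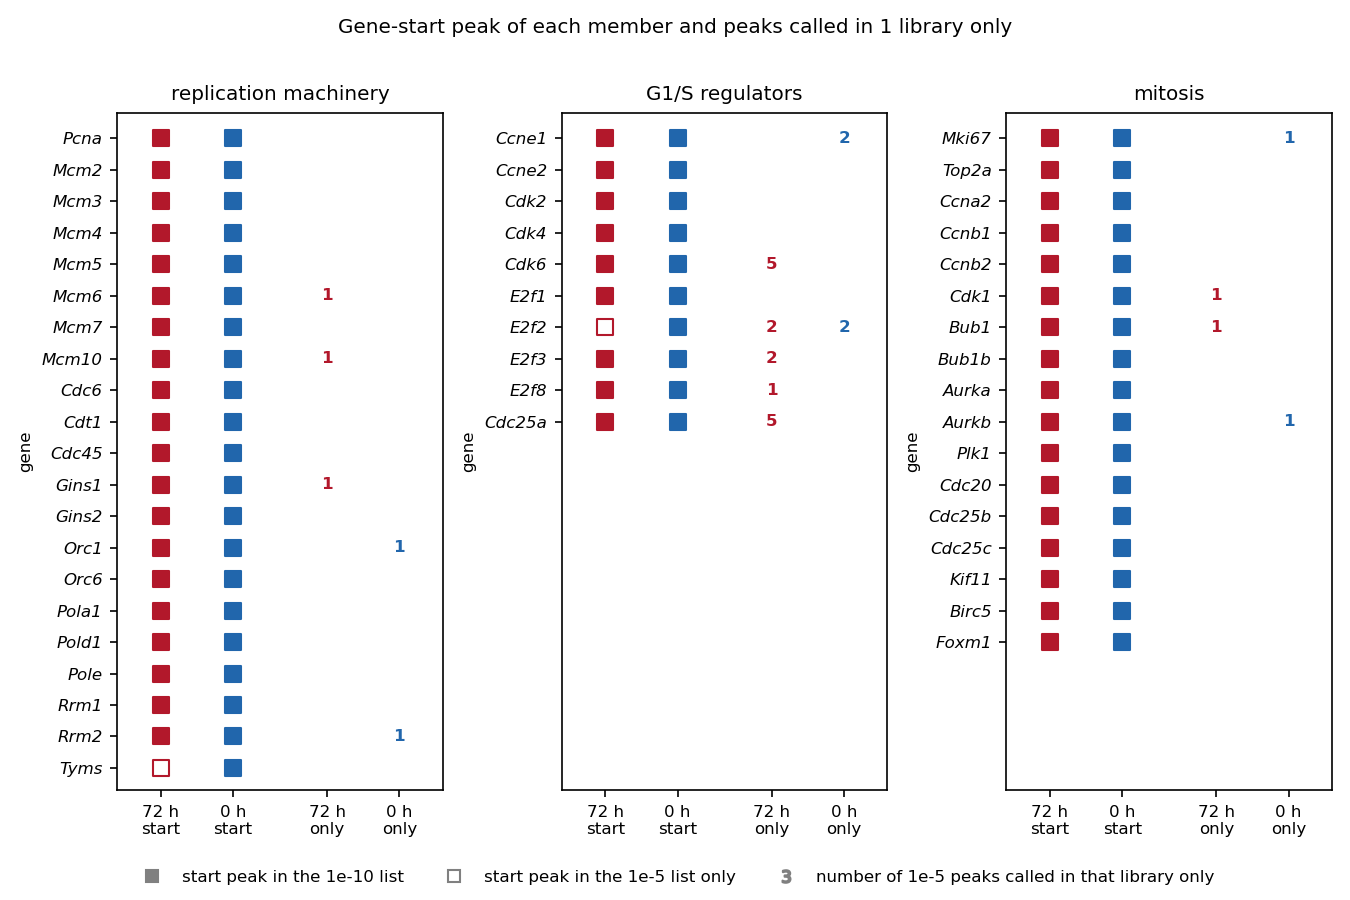
Each row is a gene. Squares give its start peak at 72 h (red) and 0 h (blue), filled where strict and open where lenient only (for 9 genes, a peak at either gene boundary); numbers count peaks of 1 library only. Open squares stand at Tyms and E2f2 at 72 h, and the numbers gather in the G1/S column.

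Tyms and E2f2 were the members whose start passed a different threshold in the 2 libraries, both a step lower at 72 h. Across all genes, 8.53% of starts passed the higher threshold at 0 h and 4.72% at 72 h, so 2 of 39 (5.13%, 0.627 to 17.3) is not above the background. Tyms encodes thymidylate synthase, which makes the thymidine nucleotide for DNA. Its start peak was lenient at 72 h (chr5:30073262-30073862, midpoint at 63 bp from the start), against strict at 0 h (chr5:30073328-30073928, midpoint at -3 bp). Tyms had no other peak, so it was the single gene of the replication machinery with an assigned peak and no strict peak at 72 h. E2f2 encodes an activating E2F factor. At 72 h its start peak was lenient, with the midpoint at -59 bp. At 0 h a lenient peak lay at -85 bp and a strict peak at 384 bp, and the 3 peaks merged into 1 site.

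The position of the start peak moved little at most of the genes. Over the 37 genes strict in both libraries, the strict peak nearest the start had its midpoint at a median of -47 bp at 72 h and -85 bp at 0 h, and the median shift between libraries was 23 bp, against 27 bp over 7852 genes. The median midpoints over all such genes were -35 bp at 72 h and -38 bp at 0 h. At 26 of the 37 (70.3%) the shift was within 50 bp, as at 68.7% of all such genes. By role this held for 12 of 13 mitosis genes, 10 of 16 replication genes and 4 of 8 G1/S regulators. Bub1 (a spindle checkpoint kinase) had the same position at both times, -45 bp, and Plk1 (polo-like kinase 1), Mki67 (the proliferation marker Ki-67) and Birc5 moved by 2, 2 and 3 bp. All 13 mitosis genes had the midpoint upstream of the start in both libraries, compared with 66.0% of all genes at 72 h and 68.0% at 0 h. For replication genes it was upstream at 12 of 16 at 72 h and 11 of 16 at 0 h, and for G1/S regulators at 7 and 8 of 8. Related genes outside the list were also above all genes. It was upstream at 24 of 29 mitosis genes in each library (82.8%), and at 77.8% and 81.5% of 27 replication genes. Shifts over 150 bp occurred at 5 genes (13.5%, against 9.70% of all). Cdk6 lay at 603 bp at 72 h and -45 bp at 0 h, and E2f1 at -29 bp at 72 h and -565 bp at 0 h. Orc6 lay at 213 bp at 72 h and -122 bp at 0 h, Cdc45 at -75 bp at 72 h and 252 bp at 0 h, and Top2a at -242 bp at 72 h and -87 bp at 0 h. At 3 of the 5 genes the 72 h library also had a peak close to the 0 h one, so that the shift is between different peaks. For Cdk6 it was a lenient peak at -51 bp, and the 0 h library also had a strict one at 618 bp. For E2f1 it was a strict peak at -551 bp, 14 bp from the 0 h one, and for Cdc45 a strict peak at 245 bp, 7 bp from the 0 h one. At Cdc6 the midpoint lay at -413 bp at 72 h and -434 bp at 0 h, upstream of the window printed above, into which both peaks reach.

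**Figure D3:**
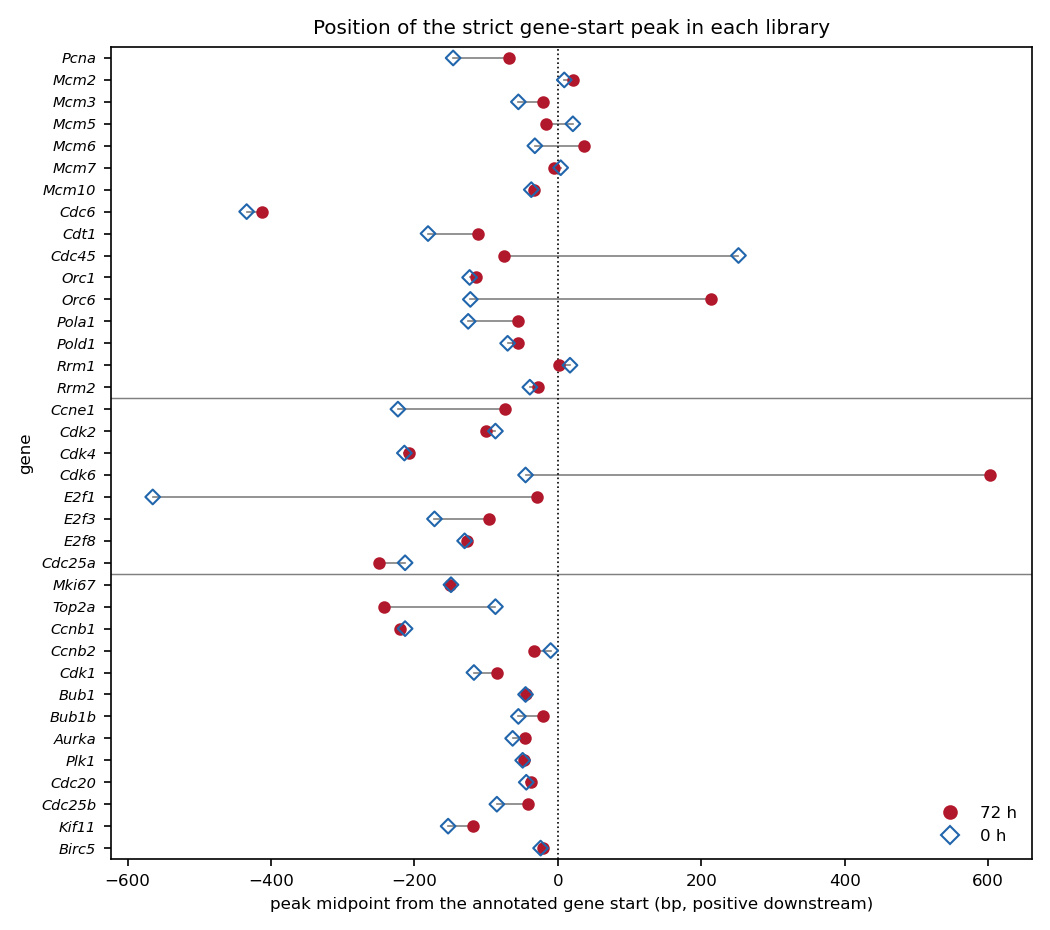
Midpoint of the strict start peak from the annotated start (x axis, bp) for 37 genes (y axis) at 72 h (red circles) and 0 h (blue diamonds); lines join the libraries and grey rules part the roles. Most pairs lie close together, and the longest line, at Cdk6, spans 648 bp.

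At several of the genes the boundary peak had its midpoint in an adjoining gene, which decides where it is counted. Mcm4 (an MCM helicase subunit) and Foxm1 (the forkhead factor of mitotic genes) had no assigned peak because the strict peak at their boundary lay inside the adjoining gene in both libraries. At Mcm4 the midpoint fell in Prkdc, 154 bp from the Mcm4 boundary at 72 h and 53 bp at 0 h; at Foxm1 it fell in Rhno1, 226 bp and 153 bp away. At Cdk2 (the S-phase kinase) the strict peaks at -100 bp at 72 h and -87 bp at 0 h went to Pmel, which left Cdk2 with 1 lenient 0 h peak. Orc6 (a subunit of the origin recognition complex) and Pole (the catalytic subunit of DNA polymerase epsilon) had an assigned peak at 72 h and none at 0 h for the same reason, since the overlapping strict 0 h peaks went to Vps35 and Pxmp2. At each of these 5 genes the boundary peak was strict in both libraries.

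Peaks found in 1 library only lay away from gene starts. Besides Tyms, near-coincident peaks within 1 kb of a start differed in threshold at other members. At E2f2 the near-coincident start peaks were lenient in both libraries, and the strict 0 h peak was a separate one. Those at 363 bp of Cdc25a, 392 bp of Rrm2 and 288 bp of Mki67 were strict at 72 h. Their 0 h counterparts, at 356, 405 and 311 bp, were lenient. At Cdk6 the peak at -51 bp was lenient at 72 h and that at -45 bp strict at 0 h. These members also had a strict start peak in both libraries. No peak found in 1 library only lay within 1 kb of a gene boundary. A peak found at 72 h only was present at 10 of the 46 genes with a peak (21.7%, 10.9 to 36.4), and the background over all genes was 39.9%. A peak found at 0 h only was present at 6 of 46 (13.0%, 4.94 to 26.3), against 29.7% of all genes. Strict peaks with no counterpart were found at 4 members at 72 h, Mcm6, Gins1, Cdc25a and Cdk1 (8.70%, 2.42 to 20.8, against 18.6% of all genes), and at 2 at 0 h, Ccne1 and Aurkb (4.35%, 0.531 to 14.8, against 6.66%). Either kind was present at 15 members (32.6%, 19.5 to 48.0, against 56.5%). These low shares depend on the assignment of each peak to 1 gene. When each peak was given to every gene within 50 kb, a 72 h-only peak was near 31 of the 48 members (64.6%, 49.5 to 77.8), against 64.4% of all 18256 genes with a peak. A 0 h-only peak was near 22 members (45.8%, 31.4 to 60.8), against 52.2% of all genes. The members were then at the background.

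With 1 gene per peak, the low counts go with the small number of sites outside the starts. Merging overlapping peaks gave 96 sites at the members, of which 51 lay within 1 kb of a gene start or boundary and 45 elsewhere. Of the 51, 48 were strict in both libraries, 2 strict at 0 h alone, 1 strict in neither, and none was found in 1 library only. A count of 0 of 51 allows up to 6.98% by the exact interval, while 6.42% and 9.33% of such sites over all genes were found at 72 h only and 0 h only. Among related genes outside the list, 0 of 32 replication sites were found at 72 h only and 2 (6.25%) at 0 h only, and of 37 mitosis sites 2 (5.41%) at 72 h only and 1 (2.70%) at 0 h only. Of the 45 elsewhere, 18 were found at 72 h only (40.0%, 25.7 to 55.7, against 37.8% over all genes) and 7 at 0 h only (15.6%, 6.49 to 29.5, against 19.0%). Both shares are near the background. A site elsewhere was present at 18 of the 46 genes (39.1%), against 64.4% of all genes. The members' genes were also shorter, with a median of 16.2 kb against 23.3 kb.

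**Figure D4:**
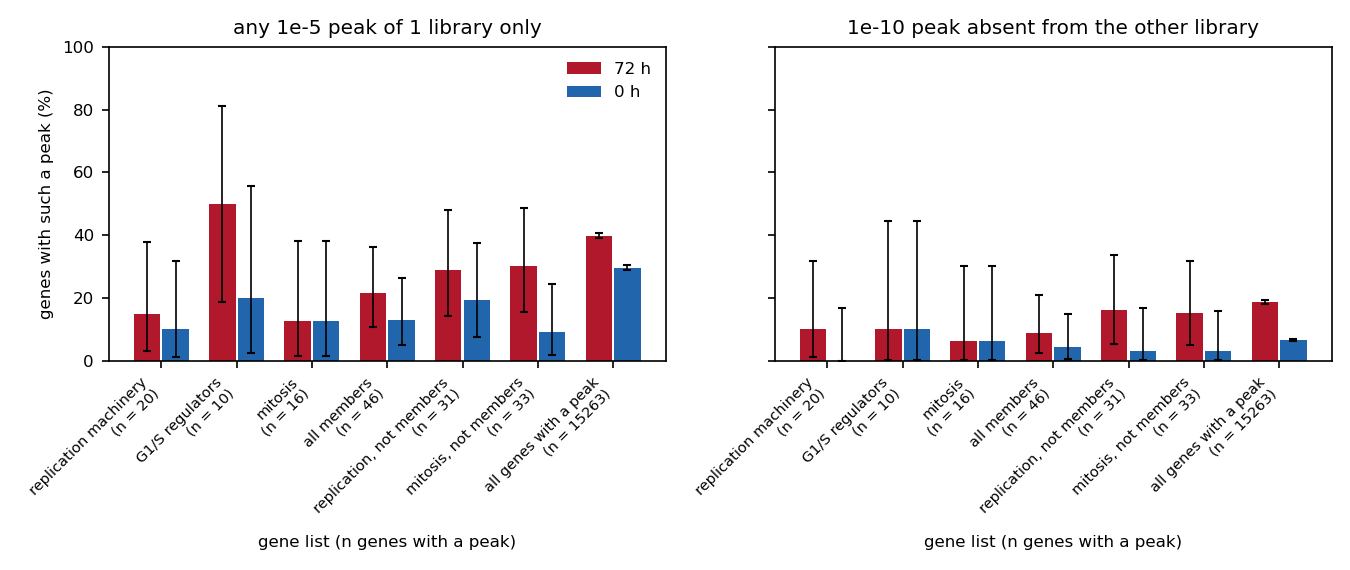
Share of genes (y axis, %) with a peak of 1 library only, by gene list (x axis, with the number of genes with a peak), for 72 h (red) and 0 h (blue); left, lenient peaks, right, strict peaks; whiskers are exact 95% intervals. Among all members 21.7% and 13.0% had a lenient one, against 39.9% and 29.7% of all genes, and G1/S regulators stand at 50.0% and 20.0%.

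Replication and mitosis genes had similar, small counts. A 72 h-only peak was found at 3 of 20 genes of the replication machinery (15.0%, 3.21 to 37.9) and 2 of 16 mitosis genes (12.5%, 1.55 to 38.3), and a 0 h-only peak at 2 (10.0%, 1.23 to 31.7) and 2 (12.5%, 1.55 to 38.3). The intervals are wide and do not show that the groups are equal. At 72 h, shared peaks made up 28 of 31 replication peaks (90.3%, 74.2 to 98.0) and 23 of 25 mitosis peaks (92.0%, 74.0 to 99.0). The share over all genes was 71.0%. At 0 h they made up 28 of 30 (93.3%, 77.9 to 99.2) and 25 of 27 (92.6%, 75.7 to 99.1), against 80.3%. Both 0 h intervals include the share of all genes. The median gene of either group had 1 peak in each library. The 10 G1/S regulators had a median of 3.5 peaks in each, and 5 of them had a 72 h-only peak (50.0%, 18.7 to 81.3) and 2 a 0 h-only peak (20.0%, 2.52 to 55.6). These intervals include the 39.9% and 29.7% of all genes. They held 15 of the members' 20 72 h-only peaks and 4 of the 8 0 h-only peaks, and 10 of the 15 lay at Cdc25a and Cdk6. At 72 h 65.9% (50.1 to 79.5) of their peaks were shared, against 71.0% over all genes.

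Cdc25a, the phosphatase that activates Cdk2, had the most strict peaks found at 72 h only. The gene had 9 peaks at 72 h, 8 of them strict, against 4 at 0 h, 3 of them strict. The 72 h-only strict peaks were chr9:109879219-109879819 and chr9:109886265-109886865 inside the gene, 3.94 and 11.0 kb downstream of the start, and chr9:109896509-109897109 and chr9:109907672-109908272 past the gene's far end, 2.91 and 14.1 kb outside it. A lenient peak overlapped the last of these. Map4 lay 33.0 and 21.9 kb from the outer peaks, so their assignment to Cdc25a rests on distance. Its shared sites, including the start and a site 1.90 kb past the far end, were strict in both libraries.

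Cdk6, a G1 kinase that partners cyclin D, spans 190 kb and had 10 peaks at 72 h against 6 at 0 h. Its 5 peaks found at 72 h only were all lenient and inside the gene, 107 to 173 kb downstream of the start, at 4 sites. Shared sites inside the gene went both ways. The site 89.7 kb downstream was strict at 72 h and lenient at 0 h, and the site 110 kb downstream was lenient at 72 h and strict at 0 h.

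Ccne1, which encodes cyclin E1, went toward 0 h. It had 3 peaks at 72 h, 2 of them strict, against 6 at 0 h, 4 of them strict. The 0 h-only peaks were chr7:38077075-38077675, strict and 20.6 kb past the gene's far end, and chr7:38073765-38074365, lenient and 23.9 kb past it. Farther out, at 36.7 kb, a shared site was lenient at 72 h and strict at 0 h. The nearest other gene, Uri1, was 53.8 and 50.5 kb from the 0 h-only peaks. A shared site 12.9 kb past the end, between these and the gene, was strict in both libraries.

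The E2F genes had lenient differences. E2f2 had 6 peaks at 72 h, with 2 found there only at 1.30 and 2.69 kb downstream of the start, and 7 at 0 h, with 2 found there only at 8.64 kb upstream and 4.02 kb past the gene. In the 0 h peak numbering 1 number had no row at the place of the 2 72 h-only peaks, and whether a 0 h peak lay there was not tested. At the place of the members' other 26 peaks of 1 library only, the other library's numbering was unbroken. E2f3, another activator, had 2 72 h-only peaks 2.68 and 18.4 kb upstream, and E2f8, a repressor of E2F targets, had 1 at 4.74 kb downstream. E2f1 had no peak of 1 library only, nor had Cdk4 or Ccne2 (cyclin E2).

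**Figure D5:**
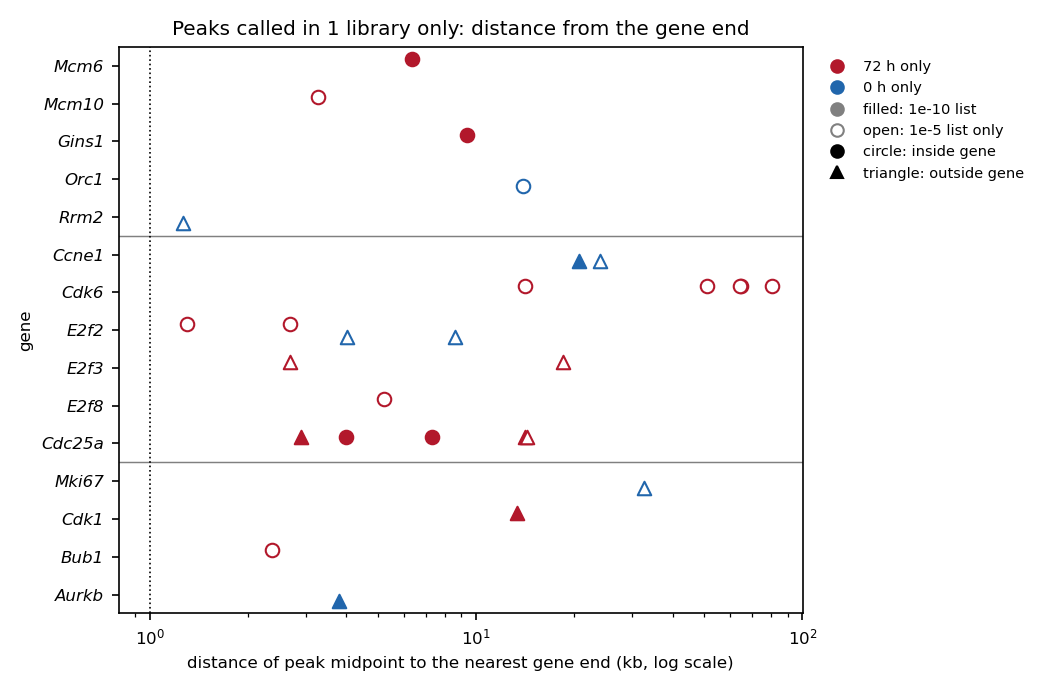
Peaks found in 1 library only, by gene (y axis) and distance of the midpoint to the nearest gene boundary (x axis, kb, log scale); red 72 h, blue 0 h, filled strict, circles inside and triangles outside the gene, dotted line at 1 kb. None lies left of the line; Cdk6 reaches 80.4 kb.

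In the replication machinery, Mcm6 (a helicase subunit) had 1 strict peak found at 72 h only, chr1:128337636-128338236, inside the gene and 21.8 kb downstream of the start. It lay 9.62 kb from Lct, the lactase gene, which itself had 1 peak at 72 h, strict and found there only, and none at 0 h. As background, in humans an intron of MCM6 holds an enhancer of lactase. Gins1 (a GINS subunit) had a strict 72 h-only peak inside the gene, chr2:150918620-150919220, 9.36 kb from a boundary. Mcm10 (a helicase activator) had a lenient 72 h-only peak 3.27 kb downstream of the start. At 0 h only, lenient peaks were found 22.7 kb downstream of the start of Orc1 and 1.26 kb upstream of that of Rrm2 (a ribonucleotide reductase subunit). The start peak of Orc1 was strict in both libraries, at -114 bp at 72 h and -123 bp at 0 h. The 0 h one was not assigned to Orc1, which left the gene with 1 lenient 0 h peak. A site 27.9 kb upstream of Mcm3 was strict at 72 h and lenient at 0 h. At Pcna (the polymerase clamp), Mcm2, Mcm5, Mcm7, Cdc6, Cdt1, Cdc45, Gins2, Pola1, Pold1 and Rrm1, each site was shared and strict in both libraries.

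Among mitosis genes, Cdk1, the mitotic kinase, had a strict 72 h-only peak at chr10:69321587-69322187, 13.3 kb past the gene's far end and 30.1 kb from Rhobtb1. Aurkb (Aurora B kinase) had a strict 0 h-only peak at chr11:69041534-69042134, 3.79 kb outside the gene. Its midpoint was 0.720 kb from that of the nearest 72 h peak, and after merging it joined a shared site that was lenient at 72 h and strict at 0 h. Bub1 had a lenient 72 h-only peak inside the gene, 2.37 kb from a boundary, and Mki67 a lenient 0 h-only peak 32.8 kb upstream. At Birc5 a shared site 2.40 kb upstream was strict at 72 h and lenient at 0 h. At Mki67 a shared site 19.5 kb upstream was strict in both. Ccnb1 had a start site strict in both libraries and a shared site farther upstream that was lenient in both. Its midpoint there was 1.04 kb from the start at 72 h and 1.09 kb at 0 h. Top2a, Ccna2 (cyclin A2), Ccnb2 (cyclin B2), Bub1b (a checkpoint kinase), Aurka (Aurora A), Plk1, Cdc20 (an activator of the anaphase-promoting complex), Cdc25b, Cdc25c (both phosphatases that activate Cdk1) and Kif11 (a spindle kinesin) each had 1 site, strict in both libraries.

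Other genes of the same processes, from lists of 35 replication and 35 mitosis genes outside the 48, gave larger shares than the members at 72 h, though still with wide intervals. A 72 h-only peak was found at 9 of 31 replication genes with a peak (29.0%, 14.2 to 48.0) and 10 of 33 mitosis genes (30.3%, 15.6 to 48.7), against 39.9% of all genes. At 0 h only, the counts were 6 (19.4%, 7.45 to 37.5) and 3 (9.09%, 1.92 to 24.3), against 29.7%. Strict peaks found at 72 h only were at Dut, Pola2, Rpa2, Tk1 and Wdhd1 for replication and at Cks2, Ect2, Incenp, Kif4 and Nek2 for mitosis, that is, at 16.1% and 15.2% of the genes with a peak, near the 18.6% of all genes. Strict peaks found at 0 h only were at Cdc7 and Nuf2 (3.23% and 3.03%, against 6.66% of all genes). The start of Tk1, which encodes thymidine kinase of the salvage route to the same nucleotide that Tyms makes, was the other start in these lists that passed a higher threshold at 0 h. Its gene also had 1 strict peak found at 72 h only.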

How the data were processed

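ATAC-seq was measured in organoids at 4 time points, 1 library each; peak lists of the 72 h and 0 h libraries were used. Per the submitters' processing notes, MACS2 2.2.7.1, Bowtie2 2.4.1 and cutadapt 1.9.1 were among the authors' tools, with mm10 as the build, beside bedtools 2.26.0, Picard 2.18.27, SAMtools 1.3.1 and deepTools 3.5.4. Settings such as a Tn5 shift or duplicate removal, which could move or drop peaks, are not given. The deposited lists hold 601 bp summit windows called per library at 1e-05 and 1e-10, with positions and names and no score, signal or count, so depth is unknown and p-values across samples cannot be had. Numbering of the 1e-05 lists leaves 740 numbers without a row at 72 h and 1427 at 0 h.

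Each peak went to the protein-coding RefSeq gene (GRCm38.p6, the assembly of mm10) holding its midpoint, or else the nearest within 50 kb. Peaks sharing 1 bp with a peak of the other library were called shared. Gene starts and strands came from the RefSeq promoter table; the gene table gives no exons, so exons and introns were not told apart. Overlapping peaks of both libraries were merged into sites, and a site belongs to each gene that 1 of its peaks was assigned to. The members, role groups, lists and rules were chosen with earlier results of these data known. All 48 members are accounted for; those with a peak or strict call of 1 library only, or no peak, are described singly. For starts strict in both libraries, the promoters shown are the first in alphabetical order among genes holding the words named for them. Cdc45, with no E2F word, and Birc5, with no CHR or CCAAT word, come earlier in that order than Cdc6 and Bub1 and were not shown. Tyms and E2f2 are all the members whose start peak passed different thresholds. The place split by annotated start, the share among starts strict in at least 1 library, summit shifts and divergent partners were added after seeing the data. Overlap and assignment were tested on simulated peaks against a slow direct count. Computation was in Python 3.11.15 with pandas 2.3.3, numpy 2.4.6 and SciPy 1.17.1, and plots were drawn with matplotlib 3.10.9. The result of 1 marker gene is not reported here.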

Additional observations from a re-analysis of the deposited data

How the results depend on the processing

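Of 64 values recomputed for 10 results under 8 alternatives, 39 stayed within 1.5 times the count, or within the interval of the percentage, and 25 moved. Giving each peak to every gene within 50 kb raised the members with a peak found at 72 h only to 31 and at 0 h only to 22, with strict peaks to 19 and 8, the replication genes to 13 and 9 and the mitosis genes to 12 and 7. Under that rule the members' shares, 64.6% and 45.8%, and 39.6% and 16.7% for strict peaks, stood beside 64.4%, 52.2%, 33.3% and 13% of all genes, each inside the members' interval, so the members' lower shares ended. Requiring an overlap of more than 50% of the peak width gave 7 members with a strict peak at 72 h only, 4 with one at 0 h only, 12 with any at 0 h only and 5 replication genes at 0 h only, and 82.6% of 0 h peaks shared. A distance of 10 kb left 1 member with a strict 0 h-only peak and 1 mitosis gene at each time. A gap of 1 kb left 1 member with a strict 0 h-only peak, and 1 replication and 1 mitosis gene with a 0 h-only peak. Without peaks within 1 kb of a gene boundary, the share of members' peaks in common was 58.3% at 72 h and 76.5% at 0 h, against 80.0% and 91.3% with them. With them, 71.0% and 80.3% of the peaks of all genes were shared. For the overlap, 10 kb, 1 kb gap and boundary rules, the share over all genes under the same rule is not given here. Whether the members stay below the background under these rules therefore cannot be read from these counts. Counting G1/S regulators with replication gave 8 genes at 72 h only and 4 at 0 h only, and counting them with mitosis gave 7 and 4. No paired analysis was possible because each time point is 1 library. Counts this small, and lists with no height, cannot show a graded change at a site that is strict in both libraries.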

Other observations

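The members' promoters were rich in CpG. Their 42 promoters had a median of 24 CpG per 300 bases, against 13 over all protein-coding promoters and 18 over those of genes with a peak, while the median GC content was 58.3%, against 56.3% and 59.3%. The median GC content was 57.5% in replication promoters and 58.0% in mitosis promoters, which differed in E2F and CHR words. Related genes outside the list were also rich in CpG, with medians of 23 for replication and 22 for mitosis.

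Of the 39 members with an annotated start, 4 (10.3%, 2.87 to 24.2) had a start of another gene on the opposite strand within 1 kb, near the 11.4% of all genes with a peak. They were Mcm7 (with Ap4m1, 138 bp between starts), Cdc45 (Ufd1, 322 bp), Orc1 (Prpf38a, 118 bp) and Aurka (Cstf1, 433 bp). Among the replication genes outside the list the share was 10 of 29 (34.5%, 17.9 to 54.3), and among the mitosis genes 6 of 30 (20.0%, 7.71 to 38.6). These counts rest on listed starts, so a partner without a listed start was not counted in any list. Vps35 lay 0.328 kb from the midpoint of the 72 h start peak of Orc6, and Cds2 0.09 kb from that of Pcna. Neither pair is in the count, and the direction of these neighbours was not tested.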
